A study of Mus musculus with 12 samples.

Results

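The genes described here are 7 of those linked to peritoneal B-1 cells, Cd5, Cd9, Spn, Ctla4, Plscr1, Tppp3 and Myb, picked by name with immunoglobulin genes left out. The choice was made with earlier results of these data known. Their shares beside those of all genes are therefore descriptive. The 7 genes were followed in each of 12 bulk RNAseq libraries of sorted peritoneal cavity (PerC) B cells. The table of counts held 56941 genes, of which 15148 passed the filter on low counts and were tested, and all 7 genes of the set were among them. There were 3 libraries in each of 4 groups, MemB and B2 of control and of KI mice, labelled as biological replicates 1 to 3. Whether libraries of both cell types came from the same mice is not stated. KI mice had the genotype Cd21Cre R26 LSL-Gpr34Q340X-IRES-GFP, meaning that Cre driven by Cd21, which is active in mature B cells, removes a stop and lets the Rosa26 locus express GFP with a GPR34 that lacks the end of its tail and gains function. Whether the control mice carried Cre is not given in the sources used here. Mice were between 8 and 20 weeks old. B2 were sorted as positive for IgD and IgM and MemB as negative for both, and no gate on GFP is named for these libraries in the sources used here. The gate negative for IgD and positive for IgM, which holds B-1 cells, was not among the libraries.

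B-1 cells are B cells of the body cavities that renew themselves and secrete natural IgM without immunization. They differ from conventional B2 cells in their surface proteins, with CD5, CD9 and CD43 (the product of Spn) among the markers used to find them. None of these genes belongs to B-1 cells alone, since T cells express Cd5, Ctla4 and Spn, and other blood cells express Cd9. In bulk samples, fewer cells of a type and less RNA per cell cannot be told apart.

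Levels below are CPM, counts scaled to library size with edgeR's TMM factors, from libraries that totalled between 29895031 and 39732039 expected counts. A gene was called changed when the adjusted p was under 0.05 and the log2 fold change passed 1 in either direction, in edgeR's test unless DESeq2 is named. The spread between replicates was wide, at 91.4% as edgeR's common coefficient of biological variation. Gpr34 was at 3.42 to 6.87 CPM in control B2 and 100.3 to 113 CPM in KI B2, and at 18.8 to 30.8 CPM in control MemB and 132 to 168 CPM in KI MemB, so every library matched its genotype label. Ighd, which encodes the IgD heavy chain, was at 1297.0 to 1694.2 CPM in B2 and 66.4 to 251 CPM in MemB. Ighm, which encodes the IgM heavy chain, was at 2014.1 to 2687.9 CPM in control MemB and 297 to 566 CPM in KI MemB, against 2905.9 to 4341.3 CPM in B2, so its transcript was abundant in the control cells sorted as negative for IgM. Of genes of the B lineage, Cd79a, which encodes a signalling chain of the B cell receptor, was at 403 to 659 CPM and Ms4a1, which encodes CD20, at 622 to 932 CPM in the 12 libraries. By Xist and Y-linked counts, replicate 3 was of the other sex from replicates 1 and 2 in all 4 groups. Values of the 7 genes are therefore also given without it where an edgeR call turns on it.

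The promoters of Cd5, Cd9 and Myb are shown because these genes had the lowest levels in KI MemB relative to control MemB among the 7. Each sequence is the 250 bases before the start of the canonical transcript in GENCODE M39 on GRCm39, read 5′ to 3′ on the strand of the gene. Capitals mark AACNG, the core letters of the site that MYB binds, and CCGGAA, the core of a site for ETS factors, on either strand. The single match of Myb lies after the start and 1 of the 3 of Cd5 spans it, so neither is shown.
Cd5: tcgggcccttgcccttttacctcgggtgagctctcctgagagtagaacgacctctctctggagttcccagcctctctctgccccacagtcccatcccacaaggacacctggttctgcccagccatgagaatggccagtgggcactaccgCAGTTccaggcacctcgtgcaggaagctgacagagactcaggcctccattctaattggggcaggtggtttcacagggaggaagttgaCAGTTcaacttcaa
Cd9: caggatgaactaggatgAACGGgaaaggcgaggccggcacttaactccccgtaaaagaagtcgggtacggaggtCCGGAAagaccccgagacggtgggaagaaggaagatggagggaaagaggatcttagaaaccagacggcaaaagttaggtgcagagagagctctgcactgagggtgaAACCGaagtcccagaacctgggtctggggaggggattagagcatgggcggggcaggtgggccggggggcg
Myb: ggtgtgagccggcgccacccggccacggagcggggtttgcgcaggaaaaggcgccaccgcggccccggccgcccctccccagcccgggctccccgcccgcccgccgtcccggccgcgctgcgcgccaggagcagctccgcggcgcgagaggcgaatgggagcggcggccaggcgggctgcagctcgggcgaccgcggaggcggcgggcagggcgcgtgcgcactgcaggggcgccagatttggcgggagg
The Cd5 sequence is chr19:10716367-10716616 on the minus strand, with a GC content of 57.2% and 5 CpG. The Cd9 sequence is chr6:125471779-125472028 on the minus strand, with a GC content of 58.8% and 14 CpG. The Myb sequence is chr10:21036884-21037133 on the minus strand, with a GC content of 81.2% and 40 CpG, the most of the 7 genes. In windows from 250 bases before to 50 after the start, AACNG occurred in 7 of the 7 genes, between 1 match in Myb and 4 in Ctla4, and in 79.8% of 21770 protein-coding promoters, so it does not set these genes apart. CCGGAA occurred in 1 of the 7, Cd9, against 16.9% of all promoters. TATAAA, the letters of a TATA box, occurred in 1 of the 7, Ctla4, where it lies 40 bases after the start, against 13.2%. CACGTG, the E-box that MYC binds, occurred in 0 of the 7, against 7.8%.

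All 7 are protein-coding genes. Cd5 spans chr19:10694480-10716366 with 11 exons, Cd9 chr6:125437210-125471778 with 8, Spn chr7:126731404-126736995 with 2, Ctla4 chr1:60926159-60954991 with 4, Plscr1 chr9:92131759-92154621 with 9, Tppp3 chr8:106193662-106198158 with 3, and Myb chr10:21000834-21036883 with 15. Exons of Cd9, Plscr1, Tppp3 and Myb overlap those of lncRNA genes on the opposite strand. Whether strand was used in counting is not given in the sources used here, so reads of such pairs may not be told apart. Exons of Cd5, Spn and Ctla4 overlap those of no other annotated gene.

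The first comparison asked what the KI allele changes in MemB. Myb, a transcription factor of blood progenitors and early lymphocytes, fell 16.8-fold and was the 1 gene of the 7 that edgeR called, while DESeq2 called it with Cd5, Cd9 and Tppp3. Cd5, Cd9, Ctla4, Plscr1 and Spn had lower means in KI MemB without passing edgeR's test, and Tppp3 had a higher one. The median log2 fold change of the 7 genes was -2.24, against -0.03 over all 15148 genes tested and -3.38 for 12 T cell genes, which are described with the other cell types. The 1 called gene of 7 stands beside 0.284% of all genes tested in the same comparison. At an unadjusted p below 0.05 the numbers were 6 of 7 (5 lower and 1 higher) and 11.1%, and the libraries of the genotypes did not overlap for 5 of 7, all lower in KI, and for 12.1% of all genes.

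**Figure D1:**
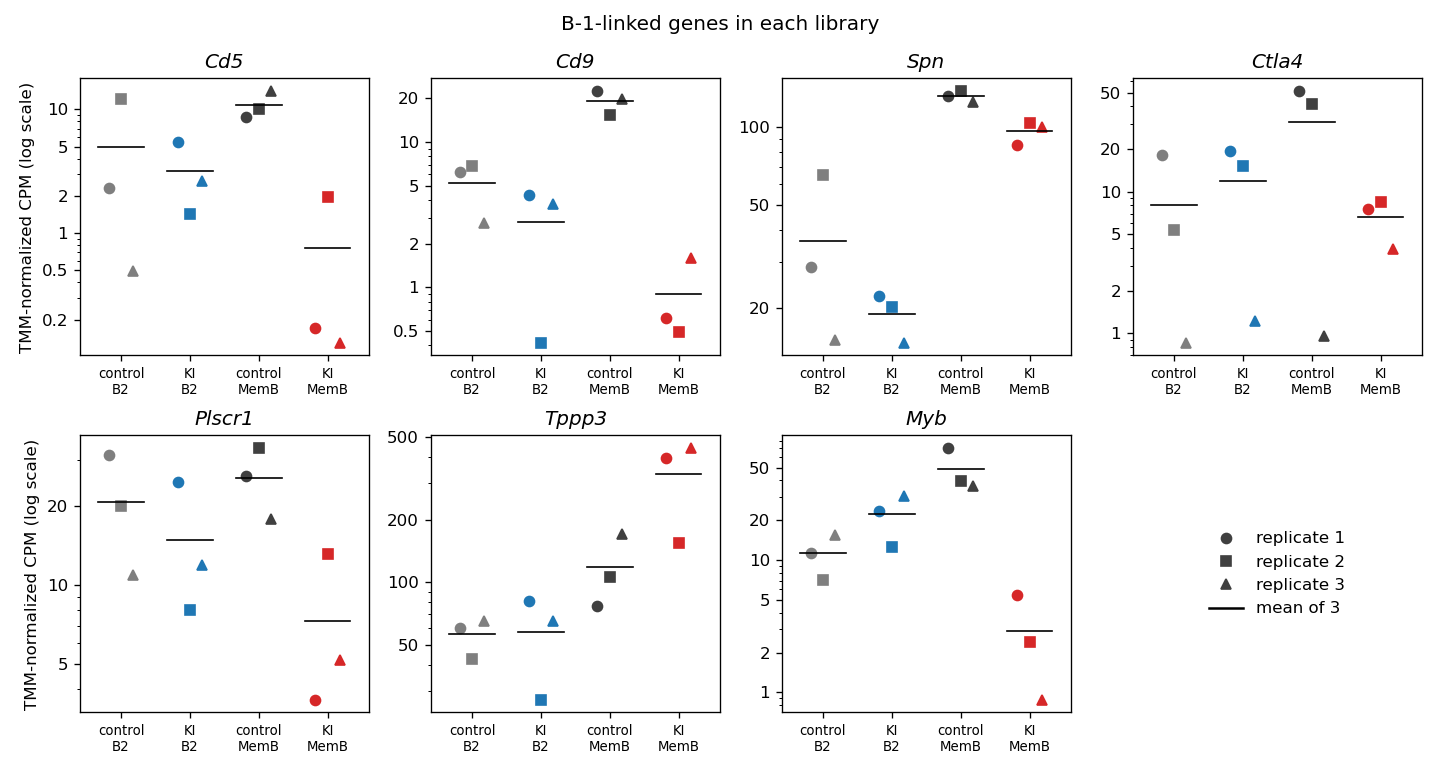
Level of each of the 7 genes in each of the 12 libraries, as TMM-normalized CPM on a log axis, with the mean of the 3 libraries of a group as a line. Myb was highest in control MemB and lowest in KI MemB, Tppp3 was highest in KI MemB, and Ctla4 was lowest in replicate 3 of every group.

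Cd5 encodes a surface protein that dampens signalling through the antigen receptors of B and T cells. In control MemB it had 307, 341 and 472 counts in replicates 1 to 3, or 8.72 to 14.1 CPM, and in KI MemB it was at 0.170, 1.96 and 0.130 CPM. Every KI library lay below every control library, and replicates 1 and 3 of KI MemB held only 5 and 4 counts. The log2 fold change was -3.85 with an SE of 1.50 (95% interval -6.91 to -0.80), which did not pass edgeR's test (adjusted p = 0.349, unadjusted p = 0.0151). KI MemB replicate 2 carried most of what was left of Cd5 in its group, and without that library the log2 fold change was -6.15 (edgeR adjusted p = 0.292).

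Cd9, which encodes a tetraspanin that organizes other proteins in the cell membrane, was at 22.5, 15.5 and 19.7 CPM in control MemB. In KI MemB it was at 0.614, 0.490 and 1.60 CPM. The lowest control library was thus several times above the highest KI library. EdgeR fitted a log2 fold change of -4.41 with an SE of 1.25 (95% interval -6.97 to -1.86), and an adjusted p of 0.189 (unadjusted p = 0.00133). Without KI MemB replicate 3, the KI library with the most Cd9, the log2 fold change was -5.11.

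Spn encodes CD43, a long and heavily glycosylated sialomucin of leukocytes. It was at 132, 138 and 125 CPM in control MemB, and had 2491, 3398 and 3070 counts, or 84.9 to 104 CPM, in KI MemB. The genotypes did not overlap, but they lay close, and the log2 fold change was -0.45 with an SE of 0.41 (95% interval -1.28 to 0.38, edgeR adjusted p = 0.753). Of the 4 surface genes, Spn thus had the smallest fitted difference between the genotypes in MemB.

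Ctla4, an inhibitory receptor for CD80 and CD86 best known from T cells, was at 51.3, 41.4 and 0.959 CPM in control MemB. In KI MemB it was at 7.54, 8.39 and 3.91 CPM. The genotypes overlapped because control MemB replicate 3 lay below every KI library. The log2 fold change was -2.24 with an SE of 1.09 (95% interval -4.47 to -0.01, edgeR adjusted p = 0.451), and without replicate 3 of every group it was -2.52 (edgeR adjusted p = 0.392).

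Plscr1 encodes a phospholipid scramblase of the plasma membrane that interferons induce. Its levels were 26.0, 33.3 and 17.8 CPM in control MemB and 3.65, 13.1 and 5.18 CPM in KI MemB. The groups did not overlap, with 17.8 CPM as the lowest control and 13.1 CPM as the highest KI value. On the log2 scale KI minus control was -1.81 with an SE of 0.76 (95% interval -3.36 to -0.26, edgeR adjusted p = 0.368). Without KI MemB replicate 2, the KI library with the most Plscr1, it was -2.54.

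Tppp3, of a family of proteins that promote the polymerization of tubulin, went the other way. It was at 76.9, 106 and 171 CPM in control MemB and 398, 154 and 443 CPM in KI MemB. KI replicates 1 and 3 stood above all controls, while KI MemB replicate 2 lay between control replicates 2 and 3. The log2 fold change was 1.49 with an SE of 0.38 (95% interval 0.71 to 2.27, edgeR adjusted p = 0.106). It passed edgeR's test when control MemB replicate 3 (log2 fold change 1.86, adjusted p = 0.0487), KI MemB replicate 2 (1.84, adjusted p = 0.0168) or KI B2 replicate 2 (1.49, adjusted p = 0.0358) was left out.

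Myb was at 70.3, 39.6 and 36.3 CPM in control MemB and 5.42, 2.39 and 0.879 CPM in KI MemB. The lowest control library held 1212 counts and the highest KI library 159, so the groups lay far apart. The fitted log2 fold change was -4.07 with an SE of 0.78 (95% interval -5.65 to -2.49, edgeR adjusted p = 0.00885), and without KI MemB replicate 1, the KI library with the most Myb, it was -4.89 (edgeR adjusted p = 0.0139). The call was lost, with the direction kept, without control MemB replicate 1 (-3.70, edgeR adjusted p = 0.0756), without KI MemB replicate 3 (-3.64, edgeR adjusted p = 0.0579), without replicate 3 of every group (-3.79, edgeR adjusted p = 0.130) and in a fit of the 6 MemB libraries alone (-4.07, edgeR adjusted p = 0.0564).

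DESeq2's Wald test on the same genes called 4 of the 7 in MemB, beside 3.16% of all genes. These were Myb (adjusted p = 7.81e-08), Cd9 (adjusted p = 9.84e-05), Cd5 (adjusted p = 0.0362) and Tppp3 (adjusted p = 0.0286), by DESeq2. For Plscr1 (adjusted p = 0.0915), Ctla4 (adjusted p = 0.268) and Spn (adjusted p = 0.724) DESeq2 made no call. The tools gave the same directions for the 7 genes and differed in how many genes they called.

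**Figure D2:**
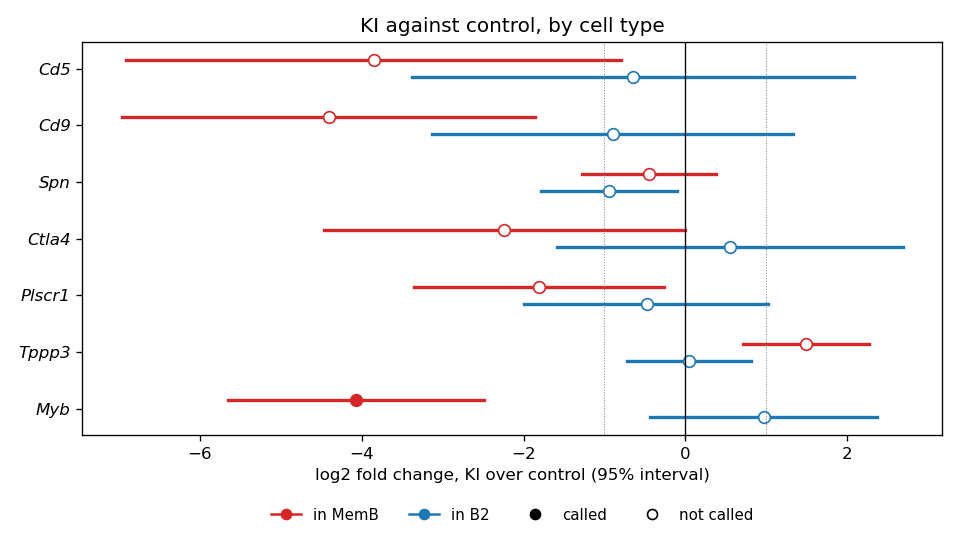
Log2 fold change of KI over control for each gene in MemB (red) and in B2 (blue), with its 95% interval, filled where edgeR called it, and dotted lines at -1 and 1. Myb in MemB, at -4.07, is the 1 filled point, and in B2 every interval but that of Spn holds 0.

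The same comparison in B2 asked what the allele changes in conventional B cells. None of the 7 genes was called there by edgeR, 1 had an unadjusted p below 0.05, and DESeq2 called 0. Among all genes tested, edgeR called 0.00660%, 5.74% had an unadjusted p below 0.05 and DESeq2 called 0.277%. The libraries of the genotypes overlapped for all 7 genes, while they did not for 10.2% of all genes. The median log2 fold change of the 7 was -0.48, against -0.03 over all genes.

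Among the surface genes, Spn was at 28.7, 65.0 and 15.0 CPM in control B2 and 22.2, 20.04 and 14.6 CPM in KI B2. Its log2 fold change was -0.94 with an SE of 0.41 (95% interval -1.78 to -0.10, edgeR adjusted p = 0.838, unadjusted p = 0.0301). That difference rested on control B2 replicate 2, and without this library it was -0.21 (edgeR adjusted p = 0.989). Cd5 was at 2.32, 12.1 and 0.491 CPM in control B2 and 5.43, 1.42 and 2.63 CPM in KI B2. The fitted -0.65 on the log2 scale (SE 1.34, edgeR adjusted p = 0.999) became 1.17 without the same library. Cd9 was at 6.22, 6.81 and 2.76 CPM in control B2 and 4.31, 0.416 and 3.73 CPM in KI B2, and KI B2 replicate 2 was the low one. The fit gave -0.90 on the log2 scale with an SE of 1.10 (edgeR adjusted p = 0.999). Ctla4 was at 18.1, 5.33 and 0.858 CPM in control B2 and 19.3, 15.0 and 1.23 CPM in KI B2, with replicate 3 lowest in both. For Ctla4 the log2 fold change was 0.55 with an SE of 1.05 (edgeR adjusted p = 0.999). It ranged from 0.01 without KI B2 replicate 1 to 1.96 without control B2 replicate 1.

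Of the other genes, Plscr1 was at 31.4, 20.02 and 10.9 CPM in control B2 and 24.6, 8.03 and 11.9 CPM in KI B2 (log2 fold change -0.48, SE 0.74, edgeR adjusted p = 0.999). Tppp3 was at 60.4, 42.7 and 64.8 CPM in control B2 and 81.2, 27.1 and 64.8 CPM in KI B2. Its log2 fold change was 0.04 with an SE of 0.37 (95% interval -0.72 to 0.81, edgeR adjusted p = 0.999). That interval leaves room for a change of less than 1 on the log2 scale in either direction. Myb was at 11.3, 7.01 and 15.5 CPM in control B2 and 23.3, 12.6 and 30.4 CPM in KI B2. The mean of Myb was thus higher in KI here, opposite to MemB, but the groups overlapped and the log2 fold change of 0.97 (SE 0.69, 95% interval -0.44 to 2.37) did not pass the test (edgeR adjusted p = 0.934).

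An interaction term tested whether the allele acted differently in MemB and in B2. It was called for 1 of the 7 genes, Myb, and for 0.0660% of all genes tested, while 3 of the 7 and 8.49% of all genes had an unadjusted p below 0.05. For Myb the effect in MemB minus that in B2 was -5.04 on the log2 scale with an SE of 1.02 (95% interval -7.12 to -2.95, edgeR adjusted p = 0.0463). DESeq2 also called Myb (adjusted p = 1.60e-05), as 1 of the 7 genes, beside 1.38% of all genes. The size ranged from -5.85, without KI MemB replicate 1, to -4.61 when libraries were left out singly, while edgeR's adjusted p then ranged from 0.0252 to 0.209 and the call was lost in 10 of 12 such fits, all but those without KI B2 replicate 2 or KI MemB replicate 1. Cd9 had a difference of -3.51 with an SE of 1.59 (unadjusted p = 0.0341, edgeR adjusted p = 0.543), and of -4.21 without KI MemB replicate 3. Tppp3 had one of 1.45 with an SE of 0.53 (unadjusted p = 0.0107, edgeR adjusted p = 0.432). For Cd5 (-3.20, SE 1.94), Ctla4 (-2.79, SE 1.50), Plscr1 (-1.33, SE 1.05) and Spn (0.49, SE 0.58) the 95% interval of the difference held 0, so these data do not show that their KI effects differ between the cell types, nor that they are alike. The difference for Cd5 was -5.51 and that for Plscr1 -2.05 without KI MemB replicate 2, and that for Ctla4 was -4.20 without control B2 replicate 1.

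The cell types were then compared within each genotype. In control mice all 7 genes had higher fitted levels in MemB than in B2, with a median log2 fold change of 1.86 against 0.04 over all genes. In the same comparison the median was 1.65 for the 12 T cell genes (11 above 0), 4.13 for the 3 NK cell genes tested and 6.23 for the 3 mast cell genes tested. EdgeR called 1 of the 7, Spn, beside 0.264% of all genes, and 3 of the 7 had an unadjusted p below 0.05, beside 10.6%. The libraries did not overlap for 4 of the 7, all higher in MemB, and for 12.3% of all genes. Spn rose 3.63-fold from B2 to MemB of control mice, a log2 fold change of 1.86 with an SE of 0.42 (95% interval 1.00 to 2.72, edgeR adjusted p = 0.0417). Control B2 replicate 2 held by far the most Spn of its group, at 65.0 CPM, and without it the log2 fold change was 2.59 (edgeR adjusted p = 0.00383). Leaving out a single library ended the call in 6 of 12 fits, namely control B2 replicates 1 and 3, control MemB replicates 1, 2 and 3, and KI MemB replicate 2, where edgeR's adjusted p lay between 0.0556 and 0.290.

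Myb was also higher in MemB than in B2 of control mice in every library, with 36.3 CPM as the lowest MemB and 15.5 CPM as the highest B2 value. Its log2 fold change was 2.11 with an SE of 0.71 (edgeR adjusted p = 0.293, DESeq2 adjusted p = 0.0301), so only DESeq2 called it. DESeq2 called 2 of the 7 genes, Spn and Myb, beside 2.63% of all genes. Tppp3 did not overlap either (log2 fold change 1.08, SE 0.38, edgeR adjusted p = 0.329), nor did Cd9 (1.87, SE 1.12, edgeR adjusted p = 0.581). For Ctla4 (1.95, SE 1.08), Cd5 (1.14, SE 1.35) and Plscr1 (0.31, SE 0.74) the libraries overlapped and no call was made. Without control B2 replicate 2, the library with the most Cd5 in B2, the log2 fold change of Cd5 was 2.96 (edgeR adjusted p = 0.588). Without control B2 replicate 1, the library with the most Ctla4 in its group, that of Ctla4 was 3.36.

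In KI mice the pattern split. Spn and Tppp3 rose from B2 to MemB, while the 5 other genes had lower fitted levels in MemB, so the median log2 fold change was -1.02, against 0.03 over all genes. Here it was -0.98 for the 12 T cell genes (9 below 0), -2.68 for the 3 NK cell genes tested and -3.82 for the 3 mast cell genes tested. These 2 calls of 7 stand beside 0.363% of all genes, and DESeq2 called 3 of the 7, these 2 and Myb, beside 2.61%. An unadjusted p below 0.05 was found for 3 of the 7 and 10.6% of all genes, and the libraries did not overlap for 3 of the 7 and for 14.8% of all genes. Tppp3 rose 5.75-fold, a log2 fold change of 2.52 with an SE of 0.39 (95% interval 1.72 to 3.33, edgeR adjusted p = 7.07e-04). Its lowest KI MemB library, at 154 CPM, was above its highest KI B2 library, at 81.2 CPM, and the call held in 12 of 12 fits that left out a single library. Spn rose 5.09-fold, a log2 fold change of 2.35 with an SE of 0.43 (95% interval 1.47 to 3.22, edgeR adjusted p = 0.00500), and kept its call in the same 12 fits but not without replicate 3 of every group (2.17, edgeR adjusted p = 0.0581).

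Myb turned around between the genotypes. In KI mice the highest MemB library, at 5.42 CPM, lay below the lowest B2 library, at 12.6 CPM. The log2 fold change was -2.93 with an SE of 0.74 (95% interval -4.43 to -1.43), which DESeq2 called (adjusted p = 5.19e-04) and edgeR did not (adjusted p = 0.0755), except without KI MemB replicate 1 (-3.74, edgeR adjusted p = 0.0464). For Cd5 (-2.06, SE 1.39), Cd9 (-1.64, SE 1.12), Plscr1 (-1.02, SE 0.75) and Ctla4 (-0.84, SE 1.05) the libraries of KI MemB and KI B2 overlapped and neither tool made a call. Single libraries moved these values, to -4.36 for Cd5 and -1.75 for Plscr1 without KI MemB replicate 2, -2.34 for Cd9 without KI MemB replicate 3, and -0.44 for Plscr1 and -0.30 for Ctla4 without KI B2 replicate 1.

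**Figure D3:**
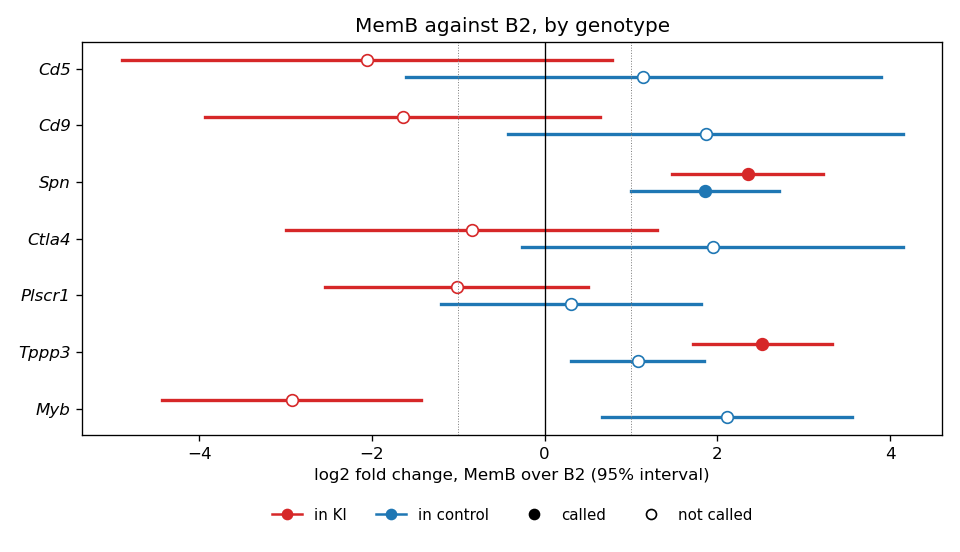
Log2 fold change of MemB over B2 for each gene in KI (red) and control mice (blue), with its 95% interval, filled where edgeR called it, and dotted lines at -1 and 1. All 7 control points lie to the right of 0, and in KI mice Spn and Tppp3 lie to its right and the 5 other genes to its left, with Myb at -2.93.

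Across the 4 groups, the order of mean levels thus differed between genes. Myb was ordered control MemB (48.8 ± 18.8 CPM), KI B2 (22.1 ± 8.94 CPM), control B2 (11.3 ± 4.27 CPM) and KI MemB (2.90 ± 2.31 CPM, all SD, n = 3). Only the middle 2 groups of Myb overlapped, whereas control MemB lay above and KI MemB below every other library. Tppp3 was ordered KI MemB (332 ± 156 CPM), control MemB (118 ± 47.9 CPM), KI B2 (57.7 ± 27.8 CPM) and control B2 (56.0 ± 11.7 CPM, all SD, n = 3), and each group overlapped its neighbour in that order, while control MemB and control B2, which are not neighbours in it, were apart. Spn was ordered control MemB (132 ± 6.81 CPM), KI MemB (96.3 ± 10.1 CPM), control B2 (36.2 ± 25.8 CPM) and KI B2 (18.9 ± 3.93 CPM, all SD, n = 3), and of these neighbours only the B2 groups overlapped.

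Cd9 and Cd5 shared an order, control MemB, control B2, KI B2 and KI MemB. Cd9 was at 19.2 ± 3.50, 5.26 ± 2.19, 2.82 ± 2.10 and 0.900 ± 0.606 CPM in that order (SD, n = 3), and only control MemB stood clear of its neighbour. Cd5 was at 10.96 ± 2.84, 4.96 ± 6.23, 3.16 ± 2.06 and 0.754 ± 1.05 CPM (SD, n = 3), with each group overlapping its neighbour. Plscr1 had the same order at 25.7 ± 7.78, 20.8 ± 10.3, 14.9 ± 8.65 and 7.32 ± 5.10 CPM (SD, n = 3), again with overlap between all neighbours. Ctla4 was at 31.2 ± 26.7 CPM in control MemB, 11.9 ± 9.46 CPM in KI B2, 8.10 ± 8.96 CPM in control B2 and 6.61 ± 2.38 CPM in KI MemB (SD, n = 3), and no neighbours were apart.

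Levels of different genes were compared after division by exon length, as CPM per kb. In control MemB, Spn (28.1 ± 1.46) and Tppp3 (27.8 ± 11.3) led, followed by Ctla4 (13.4 ± 11.4), Plscr1 (9.17 ± 2.78), Cd9 (9.05 ± 1.65), Myb (5.46 ± 2.10) and Cd5 (2.17 ± 0.561 CPM per kb, all SD, n = 3), and of these neighbours only Myb and Cd5 did not overlap. In KI MemB, Tppp3 was at 78.3 ± 36.7 and Spn at 20.6 ± 2.16 CPM per kb (SD, n = 3), and Cd9, Myb and Cd5 were at 0.423 ± 0.285, 0.324 ± 0.259 and 0.149 ± 0.207 CPM per kb (SD, n = 3), with libraries that overlapped. In control B2 the level of Tppp3 was 13.2 ± 2.77 CPM per kb and that of Cd5 0.982 ± 1.23 CPM per kb (SD, n = 3), the highest and the lowest of the 7 there.

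As a description over the 12 libraries, the log2 CPM of the 7 genes gave 21 pairs, of which 15 had a Pearson r above 0, with a range from -0.50 to 0.84 and a median of 0.25. The points share libraries, groups and depth. Cd5 and Plscr1 were most alike, at 0.84, followed by Cd9 with Plscr1 at 0.75 and Cd5 with Cd9 at 0.73. Tppp3 ran opposite to Plscr1 (-0.50), Cd5 (-0.49) and Myb (-0.49). Over all genes tested, the 3 most alike to Myb were Sft2d3 (0.92), Ighv11-2 (0.92), a variable segment of the immunoglobulin heavy chain, and Mcu (0.91), the pore of the mitochondrial calcium uniporter. To Tppp3 they were Klrb1a (0.94), Txn1 (0.93), which encodes thioredoxin, and Gpt2 (0.91). To Spn they were Ankrd33b (0.97), Ighg3 (0.95), an immunoglobulin constant region, and D430019H16Rik (0.94). For Cd5 they were Mxd4 (0.91), Actn1 (0.91) and Rap2b (0.90), and for Cd9 Polr3a (0.90), Rap1gap (0.89) and Pafah1b3 (0.87). For Plscr1 they were Tnfsf8 (0.92), Mirt1 (0.88) and Zdhhc17 (0.87), and for Ctla4 C030005K06Rik (0.88), the Y-linked Uty (0.88) and Nup35 (0.87). Some of these correlations rest on counts near the floor. Gpt2 had 0 to 3 counts in the B2 libraries and 11 to 56 in KI MemB, and Klrb1a had 3 to 7 in B2.

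A second list held 13 other genes linked to B-1 cells, of which 11 were tested. Il10 and Lin28b did not pass the filter on low counts. In MemB, edgeR called 2 of the 11 between KI and control, Il5ra and Siglecg, beside 0.284% of all genes tested, and both fell in KI. The median log2 fold change of the 11 was -0.69, against -0.03 over all genes tested, with 7 below and 4 above 0. Il5ra, the chain of the IL-5 receptor that binds IL-5, a growth factor of B-1 cells, was at 113, 80.7 and 89.1 CPM in control MemB and 23.9, 16.7 and 43.1 CPM in KI MemB. The groups did not overlap, and the log2 fold change was -1.76 with an SE of 0.38 (edgeR adjusted p = 0.0294). Siglecg, an inhibitory receptor for sialic acid on B cells, was at 384, 233 and 414 CPM in control MemB and 110.4, 202 and 172 CPM in KI MemB. Its log2 fold change was -1.09 with an SE of 0.24 (edgeR adjusted p = 0.0354). The call of Siglecg was lost with a replicate block in the model, for which values are given below. Neither call held throughout when libraries were left out singly, although both directions did. That of Il5ra was lost without control MemB replicates 1 or 2 or KI MemB replicates 1 or 2 (edgeR adjusted p up to 0.172), and that of Siglecg without control MemB replicates 1 or 3 or KI MemB replicates 1 or 3 (edgeR adjusted p up to 0.316). In B2, edgeR called 0 of the 11 (0.00660% of all genes), 1 had an unadjusted p below 0.05 (5.74%), and DESeq2 called 0 (0.277%). The difference between the KI effects was called for 0 of the 11 by edgeR (0.0660% of all genes), with 2 of them at an unadjusted p below 0.05 (8.49%), and for 1 by DESeq2, Il5ra (1.38%).

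Between the cell types, edgeR called 1 of the 11 in control mice, beside 0.264% of all genes. This was Bhlhe41, a transcription factor that B-1a cells need. It was at 103, 93.4 and 99.5 CPM in control B2 and 355, 265 and 362 CPM in control MemB. The log2 fold change was 1.73 with an SE of 0.25 (edgeR adjusted p = 1.37e-04), and the groups did not overlap. In KI mice edgeR called 3 of the 11, beside 0.363% of all genes. Bhlhe41 rose (log2 fold change 2.05, SE 0.25, edgeR adjusted p = 4.93e-06), while Il5ra (-1.77, SE 0.38, edgeR adjusted p = 0.0202) and Siglecg (-1.06, SE 0.24, edgeR adjusted p = 0.0345) fell from B2 to MemB. Leaving out single libraries ended the call of Bhlhe41 in 0 of 12 fits in either genotype. It ended that of Il5ra in KI mice in 4 of 12, KI B2 replicates 1 and 3 and KI MemB replicates 1 and 2 (edgeR adjusted p up to 0.141), and that of Siglecg in 5 of 12, all but KI MemB replicate 2 among the 6 KI libraries (edgeR adjusted p up to 0.296). The B-1-linked genes did not move as a block, since Bhlhe41, Spn and Tppp3 were higher in KI MemB than in KI B2, whereas Il5ra and Siglecg were lower.

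**Figure D4:**
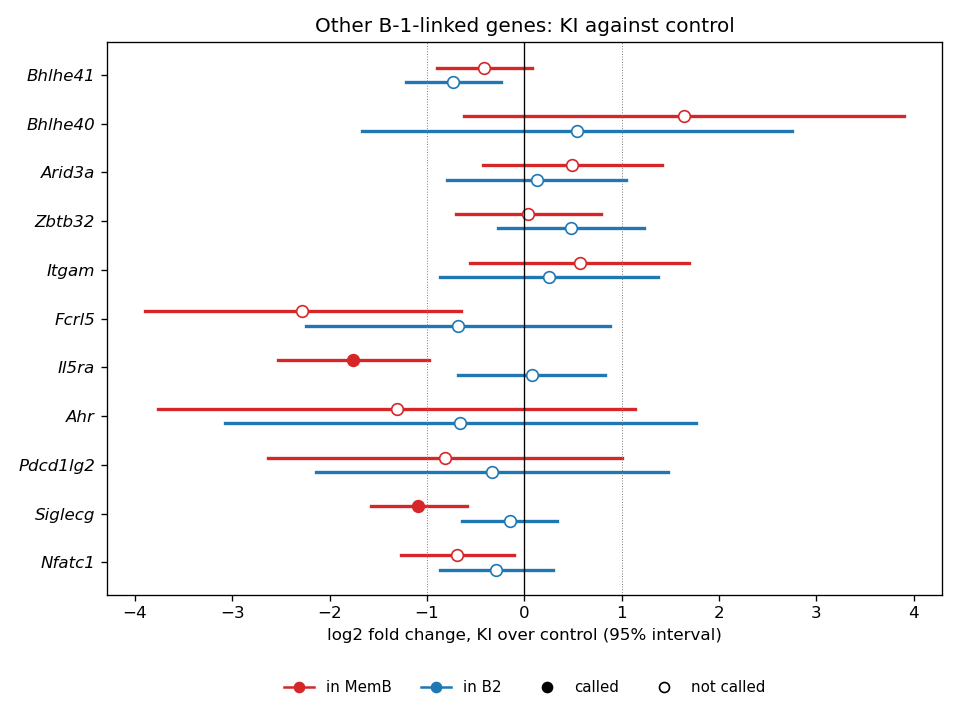
Log2 fold change of KI over control for the 11 other B-1-linked genes tested, in MemB (red) and in B2 (blue), with the 95% interval, filled where edgeR called it, and dotted lines at -1 and 1. Il5ra at -1.76 and Siglecg at -1.09 in MemB are the filled points, and 0 of the points for B2 are filled.

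Markers of other cell types were present in some libraries. The 12 T cell genes, of which none was at 0 in any library, summed to 116, 307 and 297 CPM in control MemB and 18.4, 70.7 and 63.3 CPM in KI MemB, against 55.2 to 100.3 CPM in control B2 and 37.2 to 105 CPM in KI B2. The T cell sums of the genotypes did not overlap in MemB, and the fitted log2 fold change was below 0 for 12 of 12 T cell genes, with a median of -3.38 beside -2.24 for the 7 genes. EdgeR called 0 of the 12 genes between KI and control MemB (0.284% of all genes), with 8 at an unadjusted p below 0.05, all lower in KI (11.1% of all genes), and DESeq2 called 5 (3.16%). The 6 NK cell genes summed to 47.6, 64.1 and 21.3 CPM in control MemB and 6.82, 0.827 and 6.22 CPM in KI MemB, and to between 0.920 and 17.8 CPM in B2. Nkg7, a granule protein of NK and cytotoxic T cells, was the 1 called of the 3 that were tested, beside 0.284% of all genes. Its log2 fold change was -6.47 (SE 1.46, edgeR adjusted p = 0.0374), at 45.6, 18.4 and 2.85 CPM in control MemB and 0.170 to 0.293 CPM in KI MemB. That call was lost without control MemB replicate 1 (-5.40, edgeR adjusted p = 0.304), control MemB replicate 2 or any of the 3 KI MemB libraries. The 5 mast cell genes in the table summed to 45.0, 1.53 and 241 CPM in control MemB, to 74.9 CPM in KI B2 replicate 3 and to between 0.805 and 1.77 CPM in the 8 other libraries, so the genotypes overlapped in MemB. Cma1, a chymase of mast cells, was the 1 called of the 3 tested in this comparison (log2 fold change -6.40, SE 1.41, edgeR adjusted p = 0.0374), beside 0.284% of all genes. The call was lost in 8 of 12 fits that left out a single library, among them that without control MemB replicate 3 (-4.92, edgeR adjusted p = 0.307). Cma1 was also called between MemB and B2 of control mice (6.23, edgeR adjusted p = 0.0477, 0.264% of all genes) and for the difference between the KI effects (-9.45, edgeR adjusted p = 0.0463, 0.0660% of all genes). Each of these calls was lost in 8 of 12 such fits. The value between the cell types was 4.75 without control MemB replicate 3, and the difference was -6.43 without KI B2 replicate 3. The calls of Cma1 and that of Nkg7 were also lost with a replicate block in the model, for which values are given below. The 7 macrophage genes summed to between 1.41 and 24.9 CPM, with C1qa and Mertk at 0 in all 12 libraries, and the 5 platelet genes to between 0 and 0.437 CPM.

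The 6 plasma cell genes summed to 302, 495 and 407 CPM in control MemB and 429, 379.8 and 505 CPM in KI MemB, which overlapped, and to between 198 and 372 CPM in B2. Their median log2 fold change between KI and control MemB was 1.93, with 4 above and 2 below 0, against -0.03 over all genes. Irf4, with the highest mean of the 6 in MemB, was lower in KI without overlap. It was at 267 to 385 CPM in control MemB and 202 to 241 CPM in KI MemB. Sdc1 and Tnfrsf17 were near the floor in control MemB, at up to 0.0899 and 0.881 CPM. In KI MemB Sdc1 ranged from 0.0613 to 14.4 CPM and Tnfrsf17 from 0.0326 to 10.3 CPM. EdgeR called 1 of the 6, beside 0.284% of all genes. This was Jchain, which encodes the chain that joins IgM and IgA into polymers. Jchain was at 6.71, 5.57 and 17.99 CPM in control MemB and 152, 72.1 and 196 CPM in KI MemB, against 1.62 to 11.3 CPM in B2. Every KI MemB library was thus above every other library. The fitted change was 3.80 on the log2 scale (SE 0.68, edgeR adjusted p = 0.00495), and the call was lost without KI MemB replicate 3 (3.47, edgeR adjusted p = 0.0505). Jchain was also the 1 called of the 6 for the difference between the KI effects (4.43, SE 0.90, edgeR adjusted p = 0.0463), beside 0.0660% of all genes. That call was lost in 8 of 12 fits that left out a single library, with 2.94 without control B2 replicate 1 (edgeR adjusted p up to 0.288 over these fits). A replicate block in the model ended that call too (3.95, edgeR adjusted p = 0.108). From B2 to MemB of KI mice Jchain rose by 5.45 on the log2 scale (SE 0.73, edgeR adjusted p = 3.48e-05), the 1 called of the 6, beside 0.363% of all genes.

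Genes of follicular B2 cells were also compared between MemB and B2. Of the 5 in the list, 4 had a log2 fold change below 0 and 1 above it in either genotype. EdgeR called 4 of the 5 in control (0.264% of all genes) and 2 in KI mice (0.363%), all lower in MemB. Ighd fell by 2.74 in control (SE 0.19, edgeR adjusted p = 2.64e-11) and by 3.97 in KI mice (SE 0.20, edgeR adjusted p = 3.37e-15), all on the log2 scale, and IgD was part of the sort. Fcer2a, which encodes CD23, fell by 2.30 in control mice (SE 0.31, edgeR adjusted p = 6.86e-05). Between KI and control MemB, Ighd fell (-1.35, edgeR adjusted p = 9.39e-05), and it was called for the difference between the KI effects (-1.23, edgeR adjusted p = 0.0463, lost in 9 of 12 fits that left out a single library). The 5 genes did not move together between KI and control MemB. Their median log2 fold change was 0.17, with 3 above and 2 below 0, against -0.03 over all genes. EdgeR called 2 of the 5, both lower in KI, beside 0.284% of all genes. Another 2 were higher in KI without overlap. Fcer2a was 1 of them, at 26.9 to 69.8 CPM in control MemB and 76.7 to 151 CPM in KI MemB.

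The part of such cells in the results for the 7 genes was not tested. Within control MemB, replicate 1 had the lowest T cell sum, the lowest Cd5, at 8.72 CPM, and the highest Myb, Cd9 and Ctla4, at 70.3, 22.5 and 51.3 CPM. Replicate 2 had the highest T and NK cell sums, the highest Plscr1 and Spn, at 33.3 and 138 CPM, and the lowest Cd9, at 15.5 CPM. Replicate 3 had a T cell sum of 297 CPM, the highest mast cell sum, the highest Cd5 and Tppp3, at 14.1 and 171 CPM, and the lowest Myb, Ctla4, Plscr1 and Spn, at 36.3, 0.959, 17.8 and 125 CPM. In KI MemB, replicate 2 had the highest T cell sum and the highest Cd5, Spn, Ctla4 and Plscr1, at 1.96, 104, 8.39 and 13.1 CPM, and the lowest Cd9 and Tppp3, at 0.490 and 154 CPM.

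**Figure D5:**
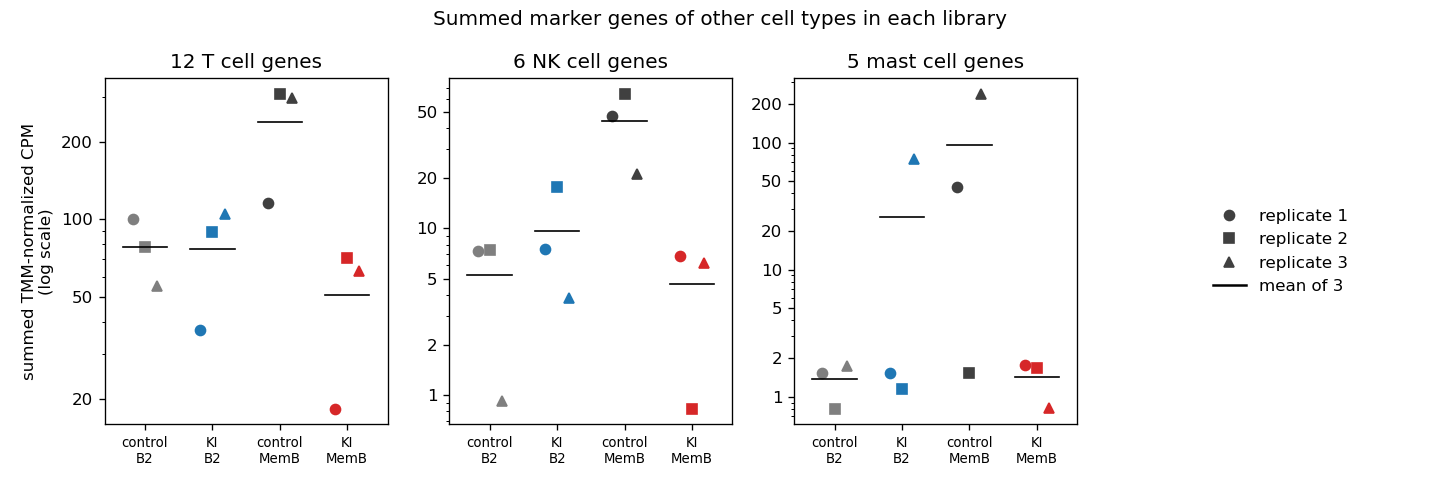
Summed TMM-normalized CPM of 12 T cell, 6 NK cell and 5 mast cell genes in each library, on log axes, with the mean of the 3 libraries of a group as a line. The T cell sums of control MemB (116 to 307 CPM) lie above those of the other groups, and mast cell genes stand out in 3 libraries.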

How the data were processed

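RNA of sorted cells was amplified and sequenced as paired-end reads of 50 bases. Per the labels and the study's methods, the authors used FastQC 0.12.1, cutadapt 4.5, STAR 2.7.11a on mm39 and RSEM 1.3.3, and deposited expected counts per gene, estimated without normalization. The annotation and the strand setting are not given in the sources used here. All 12 columns matched a library by name, and 0 others held values. Among values above 0, 32.2% were fractional, since RSEM shares reads between similar genes, and counts were rounded. Amplified reads carried no molecular identifiers and so do not count molecules, and depth says only how large the counting error is.

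Counts were tested with edgeR 4.0.16 in R 4.3.3 (filterByExpr at a minimum count of 10, TMM, robust quasi-likelihood fit, 1 model of 12 libraries with 4 group means, Benjamini-Hochberg adjustment over 15148 genes). An SE is the log2 fold change divided by the square root of F, and the intervals are 95%. Similarity used log2 CPM with a prior count of 2. DESeq2 1.42.0, other normalization and filters, non-robust fits, 6-library fits, a replicate block and leaving out libraries were alternatives. The tests were checked on simulated counts. Gene models are those of GENCODE M39 (GRCm39, which mm39 stands for), and lengths are summed over exons. The 7 genes and the lists were chosen with earlier results of these data known. All 7 were named, and from other lists at most 3 called genes per comparison by smallest p, for which the alternatives were added after seeing the data. Some genes of these lists are not reported here.

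The replicates are the 3 libraries of a group, labelled as biological replicates. Over all genes tested, deviations of same-numbered libraries did not correlate, although replicate 3 of every group shared the other sex. This check therefore cannot decide whether a number marks 1 mouse, which is not stated.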

Additional observations from a re-analysis of the deposited data

Results flagged for a closer look

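The change of Myb in KI mice differed between the cell types by the interaction term, at -5.04 on the log2 scale (MemB minus B2, edgeR adjusted p = 0.0463), with Myb lower in every KI MemB than in every control MemB library and groups that overlapped in B2. The adjusted p of this difference ranged from 0.0252 to 0.209 when libraries were left out singly. With 3 libraries in a group, single libraries were not tested for standing apart.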

How the results depend on the processing

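The called changes of Myb, Spn and Tppp3 kept their direction under all alternatives run. The number of genes called moved most with the tool. It is out of 15148 tested, 25757 without the filter, and 12947 to 16405 where libraries were left out and the filter was applied again. For KI against control in MemB it was 43, and 90 without the filter, 479 by DESeq2, 22 with the non-robust fit, 15 with 6 libraries, 24 without replicate 3 of every group and 15 to 50 with single libraries left out. For B2 it was 1, and 8 without the filter, 42 by DESeq2, 2 without replicate 3 of every group and 1 to 2 with single libraries left out. For the difference between the KI effects it was 10, and 44 without the filter, 209 by DESeq2, 4 with the non-robust fit and 5 to 10 with single libraries left out. For MemB against B2 in control mice it was 40, and 96 without the filter, 398 by DESeq2, 24 with the non-robust fit, 18 without replicate 3 of every group and 19 to 42 with single libraries left out. In KI mice it was 55, and 105 without the filter, 396 by DESeq2, 30 without replicate 3 of every group and 27 to 60 with single libraries left out. The cause was not tested, apart from fewer samples where libraries were left out.

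Calls were lost in edgeR for Myb in MemB with 6 libraries (-4.07) and without replicate 3 of every group (-3.79), with a range of -4.89 to -3.64 over single libraries left out. The difference for Myb lost its call with the non-robust fit (-5.04, adjusted p = 0.147) and without replicate 3 of every group (-4.77, adjusted p = 0.349), with a range of -5.85 to -4.61. The differences for Jchain, Cma1 and Ighd also lost their calls in both of these settings. With the non-robust fit edgeR's adjusted p was 0.188, 0.147 and 0.178 in that order. Without replicate 3 of every group the values were 5.32 (edgeR adjusted p = 0.0897), -4.99 (edgeR adjusted p = 0.615) and -1.25 (edgeR adjusted p = 0.357). Spn between MemB and B2 of control mice lost it with the non-robust fit (1.86, adjusted p = 0.111), with 6 libraries (1.86, adjusted p = 0.137) and without replicate 3 of every group (1.54, adjusted p = 0.390), with a range of 1.50 to 2.59, and in KI mice without replicate 3 of every group (2.17), with a range of 2.19 to 2.48. Directions that turned were not called. For KI against control in B2 these were Tppp3 without control B2 replicate 2 (-0.12), KI B2 replicate 1 (-0.29) or KI B2 replicate 3 (-0.05), over a range of -0.29 to 0.38 for single libraries left out, and Cd5 without control B2 replicate 2 (1.17), over a range of -1.29 to 1.17. For the difference it was Spn without control B2 replicate 2 (-0.24), over a range of -0.24 to 0.85.

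The correlation of deviations from the group means lay between -0.014 and 0.034 over 12 same-numbered pairs, with 4 matching best with their own number. It was at most 0.013 for replicate 3, which shared its sex in every group. The correlation thus missed a shared trait and cannot decide whether the numbers pair the libraries. With the replicate block, 37 genes were called for KI against control in MemB, 1 in B2, 12 for the difference, 47 for MemB against B2 in control and 62 in KI mice, Myb in MemB was at -4.13 (edgeR adjusted p = 0.00730), Siglecg (-1.06, adjusted p = 0.0570), Nkg7 (-5.60, adjusted p = 0.127) and Cma1 (-4.97, adjusted p = 0.127) lost their calls in MemB, as did Cma1 (-6.31, adjusted p = 0.574) and Jchain (3.95, adjusted p = 0.108) for the difference and Cma1 between MemB and B2 of control mice (4.90, adjusted p = 0.210), and in B2 Cd5 turned to 0.46 and Tppp3 to -0.04. Cd5, Cd9 and Myb in KI MemB rest on 4 to 159 counts a library, which limits the precision of their fold changes.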

Other observations

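Replicate 3 of each group, of the other sex by Xist (91355 to 105564 counts against 875 to 2175) and by summed Y-linked genes (192 to 282 counts against 6464 to 9879), also stood at an edge of its group for some of the 7 genes. Ctla4 was lowest in replicate 3 in 4 of 4 groups, with 28, 48, 32 and 120 counts, and Spn was lowest in 3 of 4. Tppp3 was highest in replicate 3 in 3 of 4 groups, counting KI B2 as an exception. With a single mouse of that sex in a group, sex and mouse cannot be told apart.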
